A study of Mus musculus with 9 samples.

Results

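The olfactory bulb 120 min after odor onset was compared with the bulb of mice kept in clean air. The 120 min mice had 30 min of a mixture of odorants and then 90 min of clean air, so their tissue was taken when the stimulus had been gone for some time. The comparison uses 6 of the 9 libraries of the study. It covers the 12780 of 27497 listed genes whose mean over the 9 libraries was at least 1 RPKM, a read count scaled to transcript length and library size. Rab27b lay just inside that limit with a mean of 1.0011 RPKM, and Lcor just outside it with 0.9989 RPKM.

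The study measured polyadenylated RNA of whole olfactory bulbs from adult C57/BL6 mice, 6-8 weeks old or older. Each of its 3 groups held 3 mice, 1 library a mouse. Control mice breathed air passed through activated carbon. A second group breathed odor for 30 min and was killed at once. The 120 min group was killed after the clean air that followed. The labels name no transgene, allele or drug for any group, and give no sex, no batch and no pairing of mice beyond a number. They also do not say whether any RNA was pooled, and the p-values measure the spread between these mice. Depth was recovered from the spacing of RPKM values of short RNAs and was 7160000 to 29900000 reads over the 9 libraries. In the 6 compared libraries, 3 reads on a transcript of 1 kb correspond to 0.1 to 0.419 RPKM, which limits low genes in 120 min mouse 3 most.

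Odor drives firing in the bulb, and calcium entry and cyclic AMP then switch on a first wave of genes without new protein synthesis. Many of these immediate-early genes encode transcription factors of the AP-1, EGR and NR4A families. A second wave follows, set by those proteins and by slower signals, and includes secreted factors, synaptic proteins and inhibitors of the first signals. In bulk tissue, fewer cells of a type and less RNA per cell cannot be told apart.

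At the gene level, 11 of 12780 genes passed an adjusted p of 0.05 in limma, a linear model test fitted to log2(RPKM + 0.5) of all 9 libraries with Benjamini-Hochberg adjustment over all tested genes. These 11 genes are 0.0861% of the genes tested. Of them, 9 rose (0.0704%) and 2 fell (0.0156%) at 120 min. The risers were the AP-1 and ATF factors Fosb, Fosl2 and Atf3, the zinc finger factor Egr3, the nuclear receptors Nr4a2 and Nr4a3, Ccrn4l, which encodes the phosphatase nocturnin, Bcor, which encodes a BCL6 corepressor, and the unnamed gene ENSMUSG00000080509. Those that fell were the small RNA genes Snord37 and Gm23880.

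The number of calls depended on single mice. No gene passed without clean air mouse 2 (unadjusted limma p under 0.05: 613 higher, 479 lower) and none without 120 min mouse 3 (550 higher, 305 lower). Without 120 min mouse 1 or 2, 3 genes passed in each case, and without clean air mouse 1, 6 genes passed. At an unadjusted limma p under 0.05, called nominal here, 1223 genes differed (9.57%), of which 731 were higher (5.72%) and 492 lower (3.85%). The 3 mice of one group lay entirely above those of the other in 1005 genes higher at 120 min (7.86%) and 673 lower (5.27%). The median log2 difference over all tested genes was 0.03, and 6884 of them were above clean air.

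Promoter sequences are printed for 5 of the called factors and for Pcsk1, the second of the uncalled higher genes in the order of p. They are shown because together they hold every motif match found among the called genes and 1 full cyclic AMP response element. They were picked from 12 genes searched, which also included the uncalled Cdkn1a, Homer1 and Fos. Each is the 250 bases before the annotated start, 5′ to 3′ on the gene's strand, from RefSeq on GRCm38.p6. Capitals mark the letters of a searched motif on either strand.
Fosb, chr7:19310046-19310295, minus strand: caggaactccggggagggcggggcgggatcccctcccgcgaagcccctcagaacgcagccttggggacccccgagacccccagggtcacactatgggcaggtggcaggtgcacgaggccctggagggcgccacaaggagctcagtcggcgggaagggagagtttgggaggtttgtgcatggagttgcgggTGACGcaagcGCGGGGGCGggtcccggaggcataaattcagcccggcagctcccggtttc
Fosl2, chr5:32136222-32136471, plus strand: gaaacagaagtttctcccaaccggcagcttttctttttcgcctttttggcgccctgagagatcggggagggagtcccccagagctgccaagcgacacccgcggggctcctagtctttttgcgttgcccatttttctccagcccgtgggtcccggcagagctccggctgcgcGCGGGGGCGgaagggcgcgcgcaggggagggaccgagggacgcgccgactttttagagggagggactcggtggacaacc
Atf3, chr1:191183334-191183583, minus strand: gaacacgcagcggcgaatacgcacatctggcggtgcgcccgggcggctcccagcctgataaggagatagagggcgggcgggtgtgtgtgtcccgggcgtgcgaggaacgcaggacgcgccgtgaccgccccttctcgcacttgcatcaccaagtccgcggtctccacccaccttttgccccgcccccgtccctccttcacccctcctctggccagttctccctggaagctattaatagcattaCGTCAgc
Nr4a2, chr2:57124004-57124253, minus strand: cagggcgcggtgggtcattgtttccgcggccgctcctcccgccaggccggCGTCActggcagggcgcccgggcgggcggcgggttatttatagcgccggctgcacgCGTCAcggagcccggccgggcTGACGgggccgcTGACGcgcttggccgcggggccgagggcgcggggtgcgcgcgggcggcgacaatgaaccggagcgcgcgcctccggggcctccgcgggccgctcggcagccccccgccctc
Nr4a3, chr4:48045055-48045304, plus strand: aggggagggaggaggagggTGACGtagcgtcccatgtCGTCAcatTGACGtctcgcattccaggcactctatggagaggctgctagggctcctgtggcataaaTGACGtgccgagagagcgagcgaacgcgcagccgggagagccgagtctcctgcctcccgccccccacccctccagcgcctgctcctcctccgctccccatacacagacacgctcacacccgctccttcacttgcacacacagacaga
Pcsk1, chr13:75089607-75089856, plus strand: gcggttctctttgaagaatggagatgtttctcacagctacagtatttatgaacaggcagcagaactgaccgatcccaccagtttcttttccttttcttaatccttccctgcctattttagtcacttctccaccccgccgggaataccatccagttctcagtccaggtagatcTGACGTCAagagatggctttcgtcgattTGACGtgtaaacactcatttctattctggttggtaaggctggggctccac

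The cyclic AMP response element TGACGTCA, bound by CREB, stood 78 bases before the start of Pcsk1. Its letters had no match in the windows of the called genes and were present in 1.55% of 32851 windows of the same length. Its half-site TGACG, added after the sequences were seen, occurred 4 times in Nr4a2, 4 times in Nr4a3 and once each in Fosb and Atf3. That half-site is in 17.8% of all windows. In Pcsk1 it overlaps the full element and also stands apart from it, 50 bases before the start. Fosb and Fosl2 each held the EGR letters GCGGGGGCG, at 50 and 79 bases before the start, against 2.57% of windows. The AP-1 letters TGAGTCA (4.46% of windows), the CArG box of serum response factor (1.47%), the second EGR form GCGTGGGCG (0.536%), the NR4A letters AAAGGTCA (1.34%), the E-box CACGTG (6.02%) and the D-box TTATGTAA (0.819%) had no match in the windows of the called genes. Ccrn4l, Bcor and the uncalled Cdkn1a held none of the motifs, and Egr3 has no entry in the promoter table. Of the other uncalled genes searched, Homer1 held the half-site 56, 40 and 14 bases before a start. Fos held it 129 and 66 bases before its start. A match is a description of letters, not a site of binding.

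Among AP-1 proteins, which bind DNA as dimers of a Fos and a Jun partner, Fosb measured 2.5, 4.65 and 7.16 RPKM in the clean air mice and 23.1, 29.3 and 28.6 RPKM in the 120 min mice. All 120 min mice were above all clean air mice by a wide margin, and the 30 min mice, at 52.2, 54.9 and 55.2 RPKM, were higher still. Against clean air the log2 difference was 2.48 ± 0.28 (SE, limma adjusted p = 0.0112). Fosl2, which encodes the Fos relative Fra-2, stood at 7.63, 8.09 and 16.6 RPKM in the controls and 42.7, 42.5 and 42.6 RPKM at 120 min. Its 3 values at 120 min were nearly equal and above those of the 30 min mice (31.5, 29.8 and 27.9 RPKM). Its log2 difference from clean air was 2.02 ± 0.25 (SE, limma adjusted p = 0.0143).

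Atf3, a stress-induced relative that pairs with Jun proteins, measured 0.98, 0.77 and 1.06 RPKM in clean air and 5.47, 4.08 and 5.37 RPKM at 120 min. The groups did not overlap, and 30 min values were 8.71, 5.97 and 8.82 RPKM. The log2 difference from clean air was 1.92 ± 0.22 (SE, limma adjusted p = 0.0112).

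Fos, the best known partner of Jun, fell from 30 min to 120 min (log2 difference -2.88, limma adjusted p = 0.0055). It measured 171, 131 and 164 RPKM at 30 min and 20.2, 17.1 and 25.01 RPKM at 120 min, against 4.73, 4.04 and 12.1 RPKM in clean air. Every 120 min mouse was still above every clean air mouse, but the log2 difference of 1.65 ± 0.33 (SE) did not pass (limma adjusted p = 0.276). Junb at 120 min (31.1, 37.1 and 31.8 RPKM) overlapped clean air (22.3, 35.6 and 39.9 RPKM), with a log2 difference of 0.07 ± 0.22 (SE). Of 15 tested AP-1 and related bZIP genes, 3 were called higher, 6 were nominally higher and 1 nominally lower, with a median log2 difference of 0.42. The nominally lower gene was Atf5, at 56.2, 44.3 and 41.0 RPKM in clean air and 32.7, 26.6 and 29.4 RPKM at 120 min, a log2 difference of -0.66. Crem, whose short form represses CREB targets, was higher by 0.62 with no overlap between the groups.

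**Figure D1:**
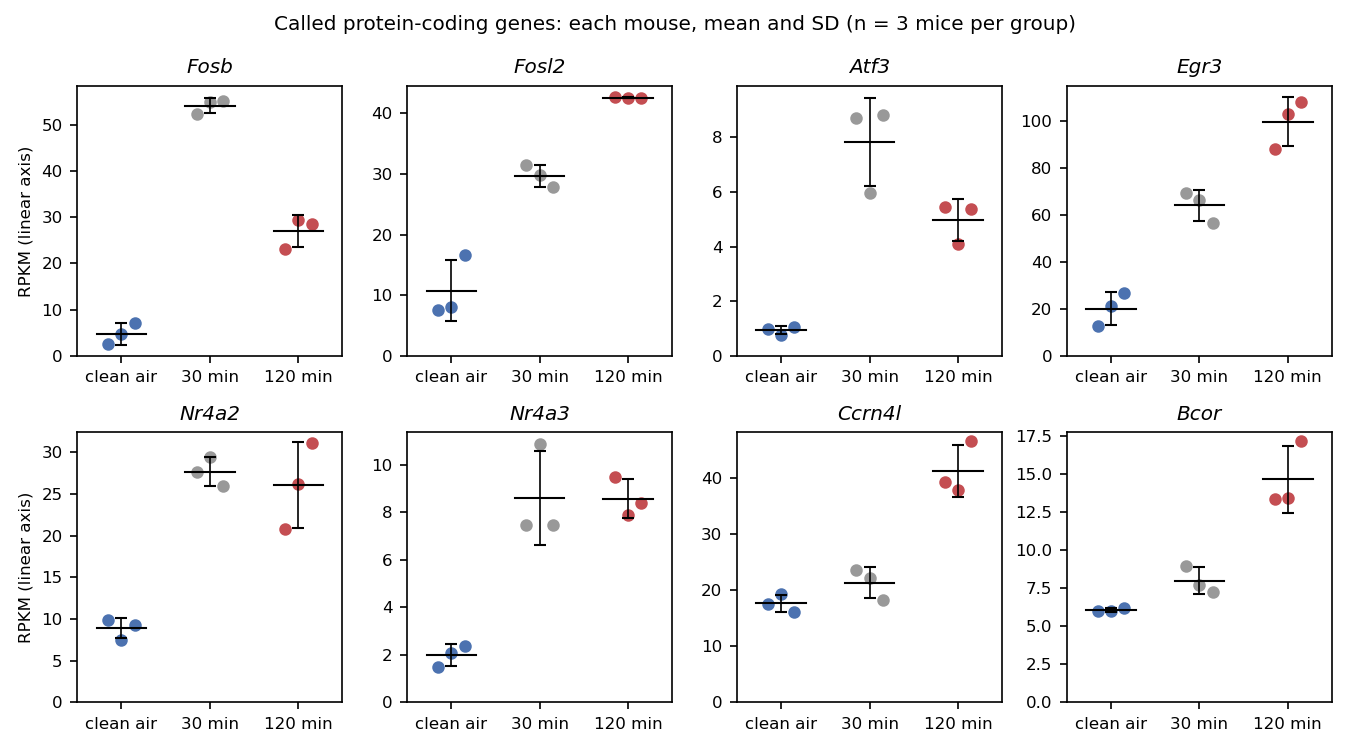
Level in RPKM (linear vertical axis from 0) of the 8 called protein-coding genes in each mouse of the clean air, 30 min and 120 min groups. Dots are mice, horizontal lines are means and bars are SD (n = 3 mice). Egr3, Fosl2, Ccrn4l and Bcor are highest at 120 min, Fosb and Atf3 at 30 min, and the 120 min mice of Nr4a2 and Nr4a3 overlap the 30 min mice.

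In the EGR family of zinc finger factors, Egr3 measured 12.6, 21.1 and 26.6 RPKM in clean air and 87.8, 103 and 108 RPKM at 120 min. All 120 min mice were also above the 30 min mice, which had 69.2, 66.3 and 56.4 RPKM. Relative to clean air the log2 difference was 2.34 ± 0.24 (SE, limma adjusted p = 0.0112). This call was lost in 2 of 22 alternative analyses, which left out either clean air mouse 2 or 120 min mouse 3, with a highest limma adjusted p of 0.101. Egr1 stood at 58.2, 56.5 and 62.7 RPKM at 120 min, inside the clean air range of 21.2, 22.3 and 67.5 RPKM. Clean air mouse 3 was the high one. Without that mouse, Fos, Egr1 and Nr4a1 passed the adjusted threshold at 120 min. Of the 5 tested EGR factors and corepressors, 2 were nominally higher, and the median was 0.56. Leaving out clean air mouse 1, or any 1 of the 120 min mice, made that count 1.

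The NR4A orphan receptors bind DNA without a known hormone. Nr4a2 measured 9.85, 7.53 and 9.28 RPKM in clean air and 20.8, 26.2 and 31.1 RPKM at 120 min. Its groups did not overlap, and at 30 min it had 27.6, 29.4 and 26.0 RPKM. Against clean air the log2 difference was 1.49 ± 0.18 (SE, limma adjusted p = 0.0143). Nr4a3 measured 1.49, 2.06 and 2.39 RPKM in clean air and 9.49, 7.86 and 8.37 RPKM at 120 min. Again the groups were far apart, and the 30 min mice lay at the same height (7.48, 10.9 and 7.45 RPKM). Its log2 difference from clean air was 1.88 ± 0.22 (SE, limma adjusted p = 0.0112). Nr4a1, the third member, measured 54.1, 54.0 and 59.6 RPKM at 120 min and overlapped clean air (18.1, 22.9 and 75.5 RPKM), with a log2 difference of 0.81 ± 0.41 (SE, limma adjusted p = 0.567).

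A pair of called genes had no call at 30 min and had their highest values at 120 min. Ccrn4l, whose product nocturnin is a clock-regulated phosphatase related to deadenylases, measured 17.5, 19.3 and 16.2 RPKM in clean air. It reached 39.3, 37.9 and 46.6 RPKM at 120 min. All 120 min mice exceeded every mouse of the other groups, since the 30 min mice had 23.6, 22.2 and 18.2 RPKM. The log2 difference from clean air was 1.20 ± 0.16 (SE, limma adjusted p = 0.0262), and from 30 min 0.94 (limma adjusted p = 0.147). Bcor measured 5.99, 6.01 and 6.18 RPKM in clean air and 13.3, 13.4 and 17.1 RPKM at 120 min. The clean air mice were nearly equal, and the 30 min mice lay between, at 8.97, 7.71 and 7.26 RPKM. Relative to clean air the log2 difference was 1.20 ± 0.17 (SE, limma adjusted p = 0.0268), and from 30 min 0.83 (limma adjusted p = 0.384). Both calls are among the less stable ones: 10 of 22 alternatives lost Ccrn4l and 13 of 22 lost Bcor, with limma adjusted p up to 0.253 and 0.177. Neither call held after adjustment for transcript length (limma adjusted p = 0.253 for Ccrn4l and 0.167 for Bcor). The same was so after adjustment for length and GC content (0.197 and 0.132). Among the called AP-1, ATF and NR4A genes, Fosl2 was lost in 6 of 22 alternatives and Nr4a3 in 5 of 22. Fosb and Nr4a2 were lost in 4 of 22 and Atf3 in 4 of 21. Each of these AP-1, ATF and NR4A calls ended when only the 6 compared libraries were fitted, with limma adjusted p from 0.0556 to 0.0714.

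Bcor and nocturnin were each set in a list of related genes. Of 14 tested genes of the BCOR, BCL6 and noncanonical Polycomb group, Bcor was called, 2 were nominally higher and 1 nominally lower, and the median log2 difference was 0.12. Bcl6, the repressor that recruits BCOR, measured 17.4, 13.5 and 18.2 RPKM in clean air and 19.4, 25.2 and 27.0 RPKM at 120 min. Its groups did not overlap (log2 difference 0.53, limma adjusted p = 0.386). Ring1, a ubiquitin ligase of Polycomb complexes, overlapped between the groups with a log2 difference of -0.49. Of 25 tested genes of deadenylation and AU-rich decay, 5 were nominally higher, nocturnin included, and 1 lower. Apart from nocturnin, the 3 with the smallest p were Cnot4 (log2 difference 0.68), Cpeb2 (0.46) and Cnot1 (0.45). They encode a ubiquitin ligase, a binder of cytoplasmic polyadenylation elements and the scaffold of the CCR4-NOT deadenylase. The median over the 25 was 0.04. After adjustment for transcript length and GC content, described with the long transcripts, 2 genes of the list were nominally higher and 2 lower, and the count of higher genes was also 2 without 120 min mouse 1 or mouse 2.

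Small RNA genes made up both genes that fell. Snord37, a C/D box small nucleolar RNA, was listed at 9.53, 6.01 and 7.81 RPKM in clean air and at 0, 1.38 and 0 RPKM at 120 min (limma adjusted p = 0.0262). The spacing of the RPKM values corresponds to 14 reads over the clean air mice and 1 read over the 120 min mice. Gm23880, annotated as a 54 nt microRNA gene, was listed at 4.76, 11.3 and 6.69 RPKM in clean air and at 0 in the 120 min mice (limma adjusted p = 0.0262). Here 10 reads stood against 0. Pooled over mice, 7.99 RPKM in clean air stood against a floor of 3.64 RPKM at 120 min, set at 3 reads, a ratio of 2.19. That ratio leaves out the counting error of the 10 reads and the spread between mice, so it is not a lower bound. Such RNAs are a by-product in libraries of polyadenylated RNA. As a group, 23 tested C/D box genes had 1 nominally higher, 2 nominally lower and a median of -0.01. ENSMUSG00000080509 was listed at 0 in every clean air mouse and at 1.84, 2.26 and 5.08 RPKM at 120 min (limma adjusted p = 0.0368). It has no annotated transcript length here, so neither reads nor a fold are given. These 3 calls were lost in 12 of 21 alternatives for Snord37, 10 of 21 for Gm23880 and 13 of 19 for ENSMUSG00000080509, with limma adjusted p up to 0.177, 0.179 and 0.179.

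None of the 11 called genes differed from 30 min at an adjusted p of 0.05. Comparisons of 30 min and 120 min with clean air share the clean air mice, so their values are set side by side and only the contrast of 120 min minus 30 min is a test of the change between them. That contrast called 10 genes (0.0782%), and 430 (3.36%) had an unadjusted limma p under 0.05. For 30 min minus clean air, 18 genes were called (0.141%) and 756 (5.92%) had an unadjusted limma p under 0.05. Fos, Egr1, Egr4, Arc, Junb and Npas4 differed between the exposed groups and were lower at 120 min. Npas4, a neuron-specific factor induced by calcium, was back at 7.02, 6.31 and 4.88 RPKM at 120 min against 5.52, 7.21 and 8.30 RPKM in clean air. Its values overlapped (log2 difference -0.19 ± 0.20, SE), after 66.1, 53.7 and 62.9 RPKM at 30 min. Arc, which encodes a postsynaptic protein that removes AMPA receptors, measured 43.3, 39.5 and 34.8 RPKM at 120 min and 15.1, 21.03 and 39.99 RPKM in clean air. The groups overlapped through clean air mouse 3, with a log2 difference of 0.73 ± 0.29 (SE, limma adjusted p = 0.475).

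The uncalled genes with the smallest p and no overlap between groups had varied roles. Cdkn1a, which encodes the cell cycle inhibitor p21, measured 61.3, 58.4 and 57.9 RPKM in clean air and 102, 96.3 and 105 RPKM at 120 min. The spread within each group was small beside the gap, and the log2 difference was 0.77 ± 0.13 (SE, limma adjusted p = 0.135). It passed after adjustment for transcript length and GC. Pcsk1, the prohormone convertase that cuts neuropeptide precursors, measured 7.47, 7.11 and 5.51 RPKM in clean air and 16.6, 12.5 and 12.8 RPKM at 120 min. The log2 difference was 1.01 ± 0.19 (SE, limma adjusted p = 0.182), and the 30 min values of 8.22, 10.2 and 8.78 RPKM lay between the groups.

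Homer1, whose activity-induced short form loosens postsynaptic scaffolds, measured 12.3, 14.4 and 5.55 RPKM in clean air and 29.2, 44.5 and 24.98 RPKM at 120 min. Every 120 min mouse was also above the 30 min mice (12.3, 17.4 and 10.7 RPKM). Against clean air the log2 difference was 1.63 ± 0.34 (SE, limma adjusted p = 0.31). The other higher genes chosen by this rule were Mef2a, a factor that limits synapse number (log2 difference 0.86), Psd3, an exchange factor for ARF6 (1.04), Pclo, the presynaptic scaffold piccolo (1.23), the adhesion protein gene Amigo2 (0.74), the biliverdin reductase gene Blvrb (0.85) and the small RNA gene AF357376. Their limma adjusted p ran from 0.224 for Mef2a to 0.31 for Pclo.

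On the lower side, Ddx5, an RNA helicase of splicing and transcription, measured 48.2, 53.2 and 49.1 RPKM in clean air and 27.7, 23.1 and 18.1 RPKM at 120 min. The log2 difference was -1.13 ± 0.20 (SE, limma adjusted p = 0.135), and the 30 min mice had 54.5, 38.3 and 55.1 RPKM. Slc16a11, a monocarboxylate transporter family member, measured 13.8, 20.9 and 20.1 RPKM in clean air and 5.53, 9.79 and 6.35 RPKM at 120 min. Its log2 difference was -1.30 ± 0.23 (SE, limma adjusted p = 0.141). Dbp, a clock-controlled activator that binds D-boxes, measured 81.3, 88.2 and 86.0 RPKM in clean air and 43.7, 59.6 and 47.2 RPKM at 120 min. The 30 min mice (51.4, 63.5 and 75.1 RPKM) were below clean air and overlapped the 120 min mice, and the log2 difference of 120 min from clean air was -0.77 ± 0.18 (SE, limma adjusted p = 0.339). The remaining genes chosen by this rule were Rrp15, a ribosome biogenesis gene (-0.95), Leng8 (-0.65), Chrac1, a chromatin accessibility factor (-0.68), 1700003F12Rik (-1.57), 2610039C10Rik (-1.28) and the antisense genes Gm9885 (-0.95) and 2600006K01Rik (-1.08). The labels do not state that counting used strand, so reads of the antisense genes and of their partners cannot be told apart.

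Lists of pathway genes and families are described by their counts and medians. The lists and their members were chosen with earlier results of these data known. No list was therefore tested, and no share is evidence of an excess. Over all tested genes, 5.72% were nominally higher, 3.85% nominally lower and 53.9% above clean air, with a median of 0.03. The Kruppel-like factors, zinc finger proteins of which several are induced by activity or glucocorticoids, had no called member. Of 12 tested members, 11 were above clean air, 6 were nominally higher (50%), none was lower, and the median was 0.56. Klf9 measured 36.9, 29.1 and 43.1 RPKM in clean air and 45.0, 49.9 and 54.7 RPKM at 120 min. Klf4 measured 2.13, 2.44 and 2.08 RPKM in clean air and 3.86, 4.29 and 4.05 RPKM at 120 min. Neither gene overlapped between the groups, with log2 differences of 0.46 and 0.75. Klf10, induced by TGF-beta, was higher by 1.00 and Klf16 by 0.57, again with no overlap. When clean air mouse 2 or 120 min mouse 3 was left out, the count of nominally higher members was 3, and the median stayed between 0.40 and 0.58 when any 1 mouse of the comparison was left out. With adjustment for transcript length and GC the count was 6 and the median 0.49.

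Signal regulators were described in several lists. Among 26 kinases and GTPase regulators of the activity response, 22 were above clean air, 7 nominally higher (26.9%) and none lower, with a median of 0.25. Sik2 (log2 difference 0.74) and Sik3 (0.58), salt-inducible kinases that hold CREB coactivators in the cytoplasm, did not overlap between the groups, nor did Dclk1 (0.64). Rasd1, a dexamethasone-induced Ras protein, was higher by 0.97 with overlapping groups. The count was 3 without clean air mouse 2. Of 17 MAP kinase feedback inhibitors, 4 were nominally higher. Dusp6, the phosphatase of ERK, measured 8.29, 9.14 and 11.4 RPKM in clean air and 13.2, 14.1 and 15.5 RPKM at 120 min. Its 120 min values lay above clean air and below the 30 min values of 21.9, 20.97 and 21.2 RPKM (log2 difference from clean air 0.56). Dusp5, a nuclear ERK phosphatase, had the same order of groups, with a log2 difference from clean air of 0.50. Spred2, an inhibitor of Ras signalling, measured 26.0, 18.5 and 34.1 RPKM in clean air and 40.1, 42.5 and 46.5 RPKM at 120 min. It differed from that order, since the 30 min mice (27.6, 27.2 and 26.7 RPKM) were inside the clean air range.

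In the cyclic AMP, PKA and CREB list, 31 of 32 tested genes were above clean air, 6 nominally higher (18.8%) and none lower, and the median was 0.24. Crebbp, the histone acetyltransferase CBP that CREB recruits, measured 26.9, 18.6 and 22.4 RPKM in clean air and 29.4, 36.6 and 37.6 RPKM at 120 min. Its groups did not overlap (log2 difference 0.60), and its paralog Ep300 was higher by 0.50, likewise without overlap. Pde10a, a phosphodiesterase that breaks down cyclic AMP and cyclic GMP, was higher by 0.55. With adjustment for length and GC, 27 of 32 were above clean air and the median was 0.14. Adjustment for length alone left 2 nominally higher. Among 10 tested genes of JAK-STAT feedback, 4 were nominally higher (40%) with a median of 0.34, and Pias1, a SUMO ligase, measured 9.06, 11.1 and 5.60 RPKM in clean air against 14.8, 19.0 and 17.5 RPKM at 120 min. That count was 2 after adjustment, and also without clean air mouse 2 or 120 min mouse 2. Stat3 (log2 difference 0.38) and Socs5 (0.43) did not overlap between the groups.

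Of 31 tested genes of the TGF-beta, activin and BMP pathway, 22 were above clean air, 5 were nominally higher (16.1%) and none lower, with a median of 0.22. Bmpr2, the type II BMP receptor, measured 5.90, 6.03 and 8.57 RPKM in clean air and 12.3, 17.7 and 11.3 RPKM at 120 min. Smad3, the signal transducer of TGF-beta and activin, measured 14.5, 8.25 and 16.4 RPKM in clean air and 27.3, 19.5 and 31.3 RPKM at 120 min. Skil, an inhibitor of SMAD proteins, measured 3.19, 3.52 and 3.04 RPKM in clean air and 5.35, 6.01 and 5.15 RPKM at 120 min. In none of these 3 genes did the groups overlap, with log2 differences of 0.95 for Bmpr2, 1.00 for Smad3 and 0.68 for Skil. The count was 3 after adjustment for length and GC, and without 120 min mouse 2 or mouse 3.

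Glucocorticoid-responsive genes, a list that shares Klf9, Bcl6 and Cdkn1a with others here, had 19 of 20 members above clean air, 5 nominally higher (25%), 1 nominally lower and a median of 0.35. Fkbp5, the cochaperone that damps the glucocorticoid receptor, measured 23.6, 14.2 and 13.3 RPKM in clean air and 31.9, 21.1 and 31.4 RPKM at 120 min. Those groups overlapped through clean air mouse 1 and 120 min mouse 2 (log2 difference 0.73). Nominally higher genes numbered 2 when clean air mouse 2 was left out, 3 when 120 min mouse 3 was, and 8 when clean air mouse 3 was. Of 19 tested clock genes, 5 were nominally higher and 1, Dbp, lower. Per2, a repressor of the clock, measured 6.11, 5.15 and 5.25 RPKM in clean air and 9.13, 9.17 and 7.46 RPKM at 120 min. It did not overlap clean air or the 30 min mice (5.47, 5.65 and 4.65 RPKM), with a log2 difference from clean air of 0.60. Clock was higher by 0.78, while Nr1d1, the most abundant member, overlapped with a log2 difference of -0.06. The labels give no time of day for any mouse. Without 120 min mouse 3 the count of nominally higher clock genes was 3.

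**Figure D2:**
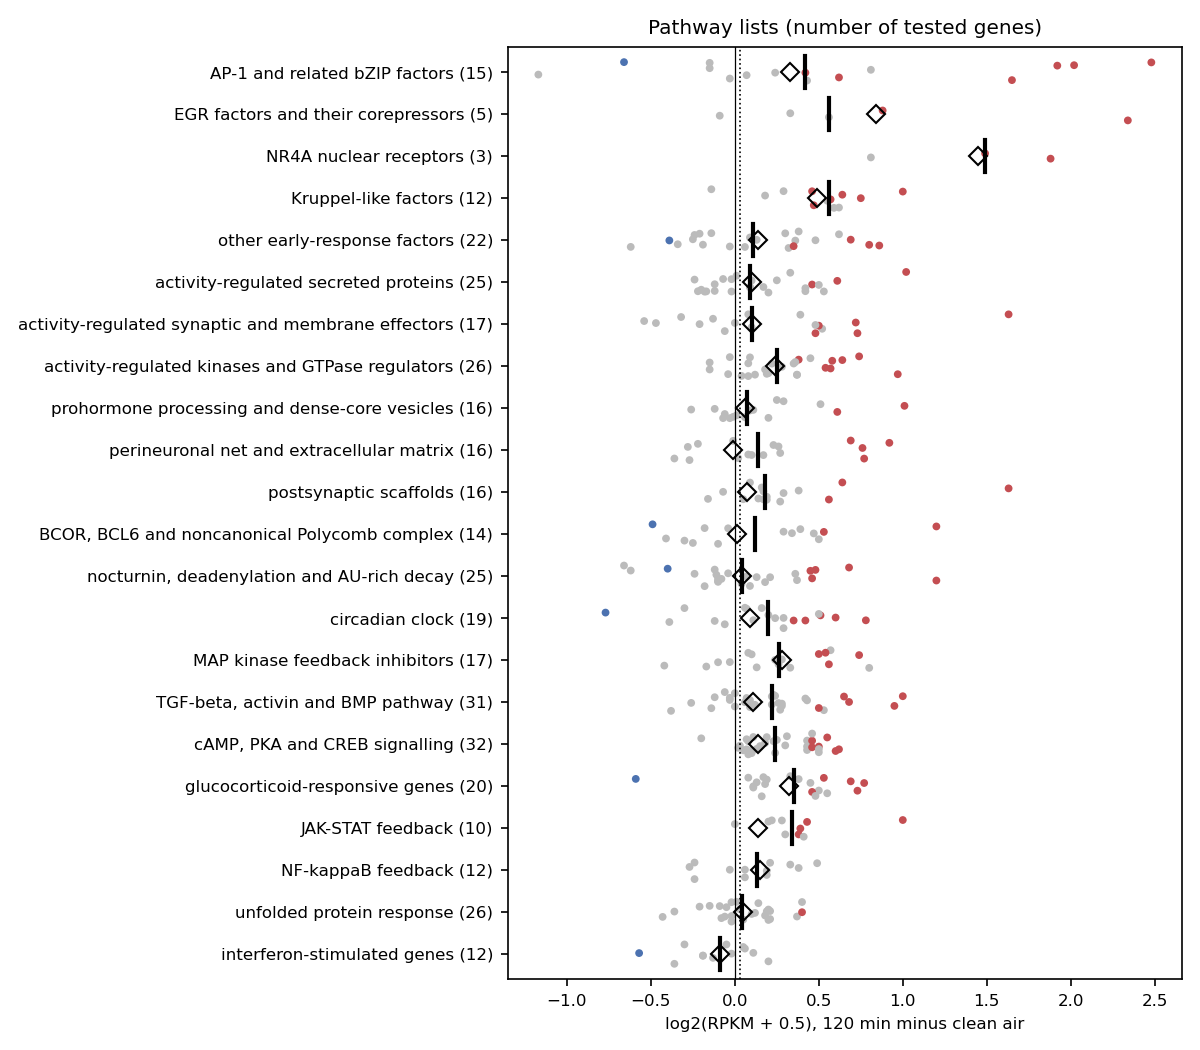
Log2 difference of 120 min from clean air for each tested gene (dots) of 22 pathway lists, with the number of tested genes in parentheses. Red and blue dots are nominally higher and lower genes, black bars are list medians, open diamonds are medians after adjustment for transcript length and GC, and the dotted line is the median of 0.03 over all tested genes. NR4A, EGR, Kruppel-like and AP-1 genes have the highest medians, and interferon-stimulated genes lie at -0.09.

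Effector genes, the proteins that act at synapses or outside the cell, held no called member. Of 17 tested synaptic and membrane effectors of the activity response, 5 were nominally higher (29.4%) and none lower, with a median of 0.10. That count was 3 after adjustment for length and 5 after adjustment for length and GC. It was 2 without clean air mouse 2 or 120 min mouse 1. Of 25 secreted proteins of the activity response, 3 were nominally higher and the median was 0.09. Igf1, a growth factor of interneurons, measured 12.7, 8.15 and 4.57 RPKM in clean air and 17.2, 14.2 and 18.1 RPKM at 120 min. Nptx2, a pentraxin that clusters AMPA receptors, measured 47.9, 32.5 and 35.0 RPKM in clean air and 57.8, 48.0 and 71.0 RPKM at 120 min. In Nptx2 the highest clean air mouse lay just under the lowest 120 min mouse. Log2 differences were 1.02 for Igf1, 0.61 for Nptx2 and 0.46 for Nptx1. Bdnf overlapped, at 0.63, 1.17 and 1.07 RPKM in clean air and 1.17, 1.69 and 1.93 RPKM at 120 min (log2 difference 0.53, limma adjusted p = 0.59). Among 16 tested perineuronal net and matrix genes, 4 were nominally higher. Acan, the proteoglycan aggrecan, measured 3.72, 3.05 and 4.09 RPKM in clean air and 6.50, 5.85 and 6.00 RPKM at 120 min. Tnc and Tnr, which encode tenascins, were higher by 0.76 and 0.77. Adjustment for length and GC, in a list whose median transcript is 7150 nt long, left 2 higher and 2 lower and a median of -0.01. The count of higher genes was also 2 without clean air mouse 2, 120 min mouse 1 or 120 min mouse 3.

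Glucose carriers were the nominally higher genes with the smallest p among 21 genes of glycolysis and of glucose and lactate transport, whose median was 0.02. Slc2a1, the GLUT1 carrier of vessels and glia, measured 69.5, 57.2 and 90.1 RPKM in clean air and 103, 104 and 135 RPKM at 120 min. Slc2a3, the neuronal carrier GLUT3, measured 39.4, 34.1 and 27.5 RPKM in clean air and 56.0, 43.1 and 55.1 RPKM at 120 min. Both had groups that did not overlap, with log2 differences of 0.67 and 0.61. Baiap2, the scaffold IRSp53, measured 121, 83.4 and 118 RPKM in clean air and 185, 132 and 185 RPKM at 120 min. With Homer1 it was among 3 of 16 nominally higher scaffold genes, and its log2 difference was 0.64. Nfatc1, a calcineurin target, was the nominally higher member of the 25 calcium signalling genes, with a log2 difference of 0.98.

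Few or no members differed nominally in some lists. No NF-kappaB feedback gene of 12 and no sterol synthesis gene of 21 had a nominal difference, with medians of 0.13 and 0.12. Of 26 genes of the unfolded protein response, 1 was nominally higher (median 0.04). Of 12 tested interferon-stimulated genes, 1 was nominally lower, Bst2 (median -0.09). Among 18 p53 targets, Cdkn1a was higher, but 3 were nominally lower (16.7%), including Bbc3, which encodes the death protein PUMA. Bbc3 measured 11.3, 17.6 and 18.1 RPKM in clean air and 9.72, 8.01 and 4.35 RPKM at 120 min, with a log2 difference of -1.08. None of 965 listed olfactory receptor genes reached a mean of 1 RPKM.

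Receptor and channel families had medians above that of all genes, with counts that varied between families. All 7 tested metabotropic glutamate receptors were above clean air, 2 of them nominally, with a median of 0.31 (0.20 after adjustment for length and GC). The nominal count was 0 when clean air mouse 2 or 120 min mouse 1 was left out. Grm3 measured 4.26, 2.70 and 2.75 RPKM in clean air and 5.51, 4.34 and 5.49 RPKM at 120 min. Its groups did not overlap, with a log2 difference of 0.61. All 11 tested GABA-A receptor subunits were above clean air, none nominally, with a median of 0.19. Without clean air mouse 3, 7 were above and the median was 0.03, and after adjustment for length and GC 9 were above. Of 18 ionotropic glutamate receptors, 10 were above clean air and 1 was nominally higher, with a median of 0.15, or 0.04 after adjustment. Of 59 potassium channels, 9 were nominally higher (15.3%) and 1 lower, with a median of 0.12. Adjustment for length alone left 3 of 56 nominally higher, with a median of 0.09. With length and GC these were 7 of 56 and 0.08. Kcna2, a delayed rectifier of axons, measured 9.17, 3.45 and 7.63 RPKM in clean air and 14.2, 14.9 and 12.1 RPKM at 120 min. Kcnb2 and Kcnma1, the latter a calcium-activated channel, were higher by 0.81 and 0.76 without overlap. Leaving out clean air mouse 2 made the count 4, as did leaving out 120 min mouse 1. Of 35 protocadherins, 5 were nominally higher, and of 29 semaphorins and plexins 6, which became 2 and 3 after adjustment for length and GC. Without clean air mouse 2 these counts were 1 and 2, and for protocadherins 3 without 120 min mouse 1 or mouse 2.

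Transcript length moved with the groups in the whole table. The longest annotated transcript had a median of 3427 nt over all tested genes, 5720 nt over the nominally higher genes and 2314 nt over the nominally lower ones. GC content had medians of 50.4%, 49.0% and 54.4%. From the shortest to the longest of 5 equal groups of genes, the median log2 difference of 120 min from clean air ran from -0.09 to 0.20. Across 12132 genes of a library, which are not independent, Pearson's r between a gene's deviation and log2 length was -0.119, -0.265 and -0.058 in the clean air mice and 0.123, 0.232 and 0.060 in the 120 min mice. In the 30 min mice r was 0.007, 0.081 and 0.004, above the clean air mice and overlapping the 120 min mice. With GC content, r was 0.177, -0.171 and 0.340 in clean air and 0.076, -0.294 and 0.239 at 120 min. It was 0.070, -0.505 and -0.055 at 30 min, so mouse 2 had the lowest value of each group. An adjustment of each library for length and GC, added after the data were seen, called 7 genes, of which 6 were among the 11. It left 4.95% of genes nominally higher and 4.68% lower.

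**Figure D3:**
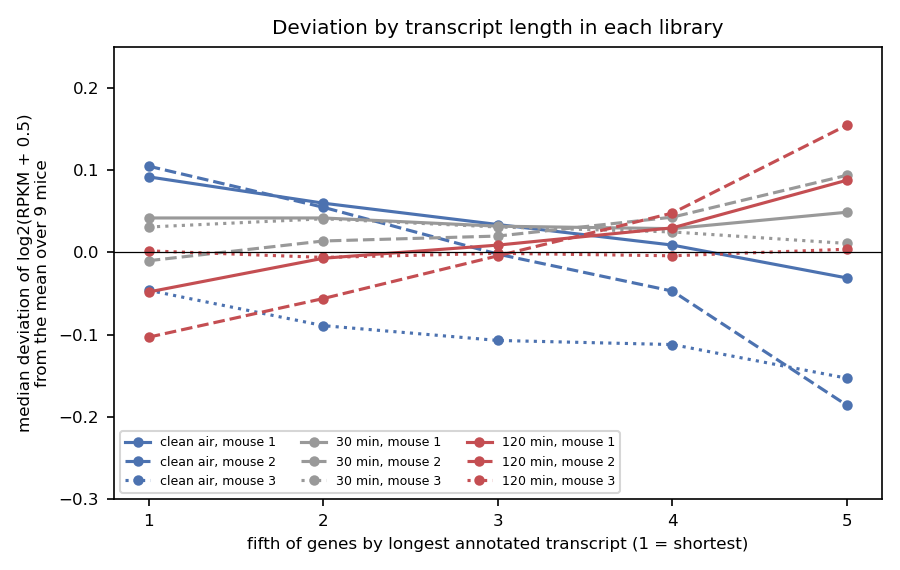
Median deviation of log2(RPKM + 0.5) from each gene's mean over the 9 mice, in 5 equal groups of genes by longest annotated transcript (1 is the shortest). Each line is 1 library. Clean air libraries slope down to medians of -0.031, -0.186 and -0.153 in the longest group, and 120 min libraries reach 0.088, 0.155 and 0.004 there.

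Among the families with lower medians, collagens, the structural proteins of matrix and basement membranes, had 12 of 24 tested genes nominally lower (50%), none higher and a median of -0.51. Their median transcript, 5989 nt, is long, and with adjustment for length and GC 13 were nominally lower and the median was -0.54. Without 120 min mouse 3 the count was 7, and the medians with any 1 mouse of the comparison left out ran from -0.58 to -0.43. Of 39 listed collagen genes, 15 fell under 1 RPKM and were not tested.

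Col7a1, the anchoring fibril collagen, measured 2.57, 4.13 and 4.74 RPKM in clean air and 1.52, 1.45 and 1.18 RPKM at 120 min. Col16a1 measured 14.5, 18.0 and 16.8 RPKM in clean air and 7.25, 12.8 and 5.60 RPKM at 120 min. Col9a2, a chain of the cartilage collagen IX, measured 12.1, 16.9 and 13.4 RPKM in clean air and 7.50, 9.74 and 3.57 RPKM at 120 min. In these 3 genes the groups did not overlap, with log2 differences of -1.16, -0.98 and -1.06 and limma adjusted p of 0.339, 0.339 and 0.345. The 30 min mice were also below clean air for Col7a1, at 2.26, 1.03 and 1.46 RPKM, and for Col16a1, at 8.52, 9.17 and 11.7 RPKM. For Col9a2 they overlapped clean air, at 12.6, 7.79 and 9.47 RPKM. The most abundant collagen, Col6a1, measured 85.1, 76.5 and 90.6 RPKM in clean air and 73.6, 60.5 and 63.0 RPKM at 120 min (log2 difference -0.35).

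In all, 9 of the 24 tested collagens (37.5%) had groups that did not overlap, each lower at 120 min, against 5.27% of all tested genes. Relative to each gene's clean air mean, the list median was -0.19, 0.04 and 0.10 in the clean air mice. It was -0.46, -0.16 and -0.81 in the 120 min mice. As a list, collagens thus overlapped between the groups, through clean air mouse 1 and 120 min mouse 2. At 30 min the list medians were -0.15, -0.52 and -0.27, which also overlapped clean air. Col1a1, a chain of the main fibrillar collagen, overlapped between the groups with 12.01, 7.82 and 8.42 RPKM in clean air and 6.58, 12.2 and 14.5 RPKM at 120 min. Col1a2, Col3a1, Col4a1 and Col4a2 overlapped too, the last 2 being basement membrane chains, with log2 differences between -0.07 and 0.16. Markers of choroid plexus and meninges summed to 118, 72.7 and 64.0 RPKM in clean air and to 59.4, 139 and 129 RPKM at 120 min, and none of the 10 was at 0 in all mice. Col1a1 and Col1a2 are among these 10 markers, so the sum is not independent of the collagen list. The part of meningeal content in the collagen result was not tested.

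**Figure D4:**
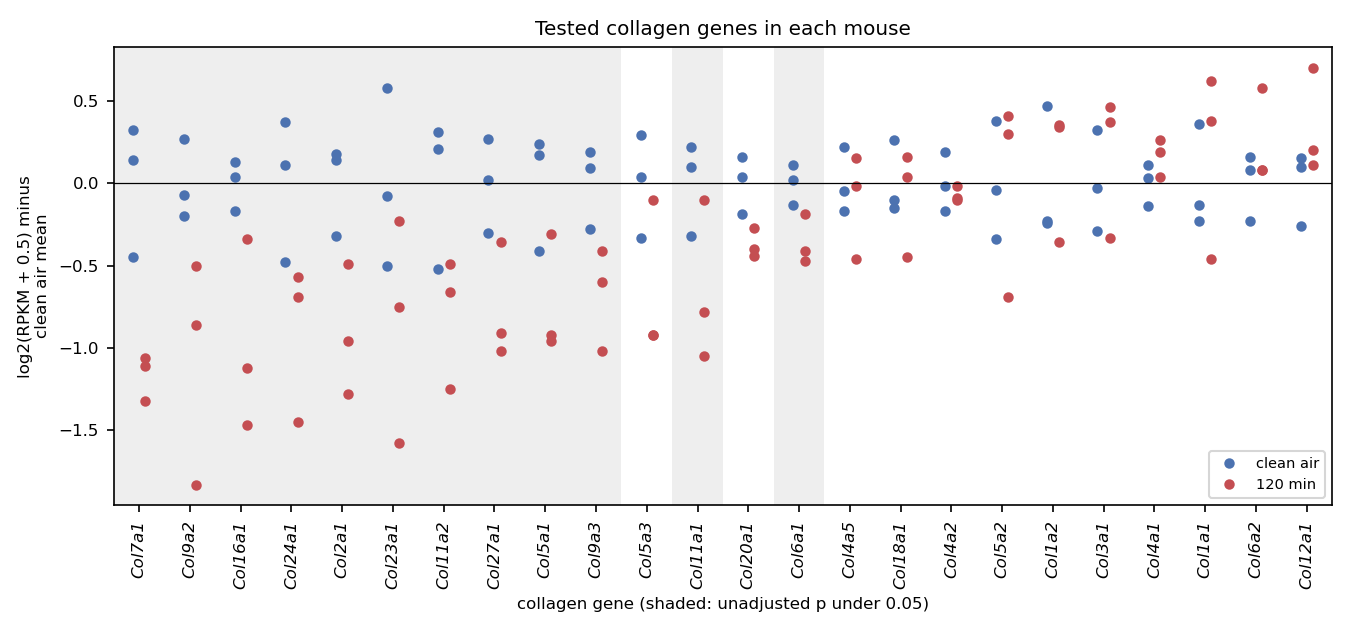
Log2(RPKM + 0.5) minus the clean air mean (vertical axis) for the 24 tested collagen genes in the clean air (blue) and 120 min (red) mice, ordered by the log2 difference. Shaded genes were nominally lower; from Col4a5 to the right the 2 groups overlap around 0.

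Respiratory chain, proteasome and ribosomal protein genes had medians below 0. Of 34 subunits of respiratory complex I, 8 were above clean air and 4 nominally lower, with a median of -0.14. The count of nominally lower genes was 2 after adjustment for length and GC, 2 when clean air mouse 2 or 30 min mouse 2 was left out, and 1 when 120 min mouse 2, 120 min mouse 3 or 30 min mouse 3 was. Ndufc1 measured 44.2, 75.6 and 47.5 RPKM in clean air and 27.2, 43.3 and 28.4 RPKM at 120 min, without overlap. The other medians were -0.19 for cytochrome c oxidase, -0.16 for ATP synthase, -0.13 for the proteasome, -0.20 for 45 cytosolic ribosomal proteins and -0.12 for 74 mitochondrial ribosomal proteins. None of the cytosolic ribosomal protein genes had a nominal difference. Median transcripts in these groups were between 659 and 1883 nt, and after adjustment for length and GC the medians were -0.06 for complex I, -0.01 for cytochrome c oxidase, -0.01 for ATP synthase, -0.08 for the proteasome, -0.06 for cytosolic and -0.05 for mitochondrial ribosomal proteins. Not every list of short transcripts lay on that side: 21 tested genes of the mitochondrial genome, with a median length of 71 nt, had a median of 0.27, or 0.45 after adjustment. That median was -0.10 without clean air mouse 3 and 0.96 without clean air mouse 2. Relative to each gene's clean air mean, this list had medians of -0.58, 1.36 and -0.67 in the clean air mice. They were -0.26, 1.25 and 0.07 at 30 min and -0.63, 1.14 and 0.45 at 120 min. The groups thus overlapped, and mouse 2 was the highest of each group. The medians were -0.39 for 44 microRNA genes and -0.38 for 11 H/ACA box small nucleolar RNAs, and -0.01 and -0.19 after adjustment. For ATP synthase the median turned to 0.07 when clean air mouse 1 was left out and to 0.10 when 120 min mouse 2 was.

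**Figure D5:**
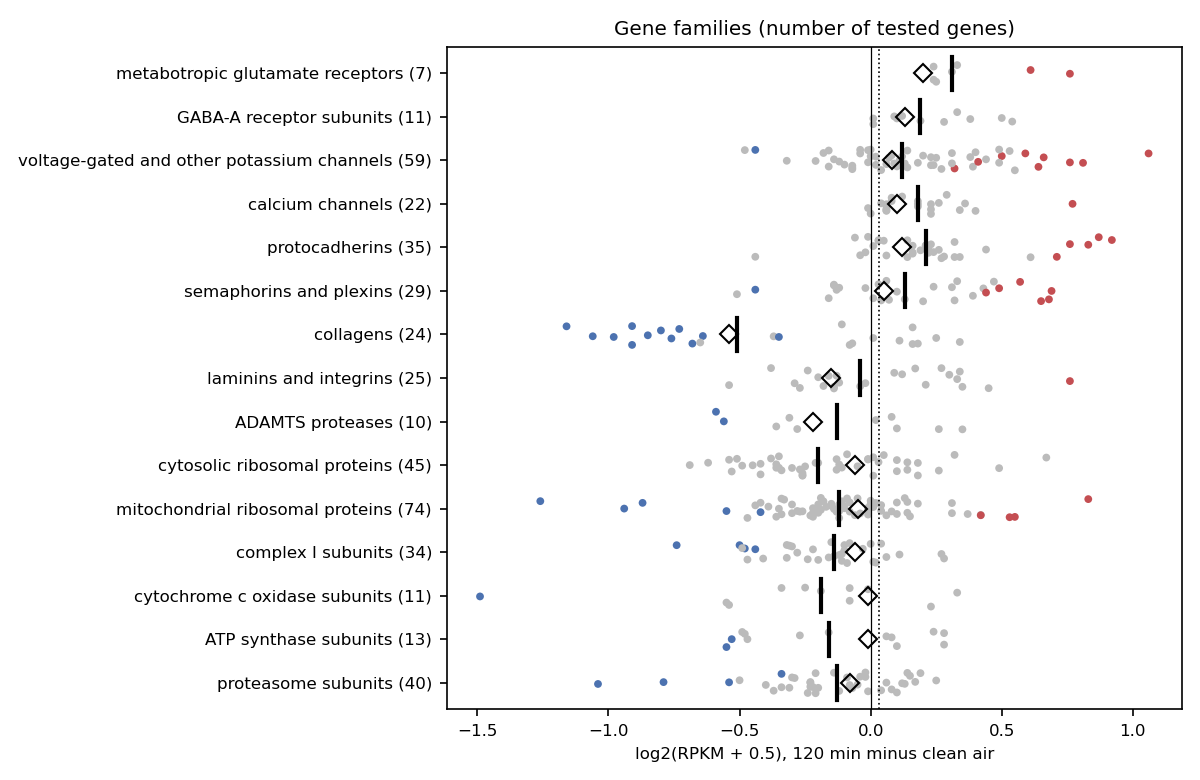
Log2 difference of 120 min from clean air for each tested gene of 15 families, drawn as for the pathway lists. Collagens lie at a median of -0.51 before and -0.54 after adjustment for length and GC, whereas the respiratory, ribosomal and proteasome families move toward 0 after adjustment.

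Defining markers of bulb cell types were present in every mouse. Tyrosine hydroxylase (Th) of dopaminergic interneurons, Gad1 of GABAergic cells, Doc2g of mitral and tufted cells and Mbp of oligodendrocytes were all abundant, and the lowest of the 6 mice had 157, 280, 414 and 583 RPKM in that order. Among 7 tested mitral and tufted cell markers 3 were nominally higher, with a median of 0.41. Tbx21, a transcription factor of these output neurons, measured 15.7, 20.1 and 16.5 RPKM in clean air and 26.4, 23.1 and 25.4 RPKM at 120 min, without overlap. Reln, which encodes the secreted protein reelin, measured 41.1, 18.6 and 39.8 RPKM in clean air and 57.1, 59.8 and 59.9 RPKM at 120 min. Doc2g, the most abundant marker of the list, overlapped and lay on the lower side (log2 difference -0.27). The summed level of the list was 1044 to 1442 RPKM in clean air and 1150 to 1227 RPKM at 120 min. Blood content varied within both groups: hemoglobin and Alas2 summed to between 38 and 145 RPKM in clean air and between 46.3 and 188 RPKM at 120 min, with Hba-a1 listed at 0 in every mouse. Axons of olfactory sensory neurons summed to 273 to 493 RPKM in clean air and 197 to 428 RPKM at 120 min. The part of these differences between mice in the results was not tested.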

How the data were processed

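Polyadenylated RNA was sequenced as paired ends, 1 library for each of 9 mice. The authors deposited 1 table of RPKM values per gene. Bowtie and the build mm9 are named per the submitters' processing notes; versions, the annotation and counting rules are not given in the labels or the file. Values were taken as log2(RPKM + 0.5) of the deposited RPKM, so differences understate the change of low genes. The 12780 genes averaging 1 RPKM or more were tested with limma 3.58.1 in R 4.3.3 on all 9 libraries with 3 group means, a variance trend and Benjamini-Hochberg adjustment. The comparison of 120 min with clean air and the contrast of 120 min with 30 min come from the same fit, which was tested on simulated data.

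The genes named are every called gene, the 10 uncalled genes with the smallest p in each direction among those whose groups do not overlap, an early-response panel and, in each list, called members, the 3 others with the smallest p and the most abundant member. The lists and members were chosen with earlier results of these data known. Read numbers were recovered from RPKM spacing in RNAs under 200 nt, where 86.2% to 92.7% of values were whole within 0.05, so they are estimates and cover counting error only. Alternatives changed the pseudocount, filter, scaling, variance model, libraries and replicate block. Adjustment for longest transcript length and GC was chosen after seeing the data. A result on a withheld item is not reported here.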

Additional observations from a re-analysis of the deposited data

Results flagged for a closer look

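For 6 genes of the first wave, the difference from clean air was itself different between 30 min and 120 min, by the limma contrast of 120 min minus 30 min (n = 3 mice a group, adjusted over all 12780 tested genes). All 3 mice at 120 min were below all 3 mice at 30 min in each of them. The log2 differences were -3.23 for Npas4 (adjusted p = 6.25e-05), -2.61 for Junb (adjusted p = 0.000695), -2.50 for Egr4 (adjusted p = 0.00344), -2.84 for Arc (adjusted p = 0.00344), -2.88 for Fos (adjusted p = 0.0055) and -2.37 for Egr1 (adjusted p = 0.0489). Over all tested genes, 10 were called in this contrast (0.0782%).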

How the results depend on the processing

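Counts of called genes depended on the setting, with 11 in the reported analysis, 9 higher and 2 lower. The number called was 7 with a mean of at least 5 RPKM, 7 with array weights, 7 with adjustment for transcript length, 7 with adjustment for length and GC, and 2 when only the 6 compared libraries were fitted (1 higher, 1 lower). Genes called lower numbered 0 with a pseudocount of 0.1, with the filter at 5 RPKM and after adjustment for length and GC, and 1 with array weights and after adjustment for length alone. Leaving out 1 mouse gave 0 to 11 calls, 0 to 9 higher and 0 to 2 lower. The nominal counts then ran from 550 to 1058 higher and from 305 to 559 lower. Leaving out clean air mouse 2, or else 120 min mouse 3, ended every call, while 613 and 550 genes were nominally higher and 479 and 305 lower. Except where the construction itself takes away genes or samples, the cause of these moves was not tested. Junb, at 0.07, was -0.18 without clean air mouse 1 and -0.01 without 120 min mouse 2, and reached 0.24 when clean air mouse 3 was left out. Median-centring and quantile normalization gave 607 higher with 600 lower and 669 with 573, against 731 with 492.

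With the replicate number as a block, 11 genes were called, 9 of them shared. Agbl3 and Homer1 were added, Snord37 and ENSMUSG00000080509 were lost, and nominal counts were 1106 higher and 804 lower. Same-numbered mice of the compared groups correlated in their deviations at 0.223, 0.391 and 0.09, and each correlated best with its own number. The 30 min mice correlated with the same number at 0.301, 0.383 and 0.147 in clean air. With the same number at 120 min they correlated at 0.319, 0.444 and 0.081. The labels do not say that a number marks a pair, so the block was not used. The depth of 7160000 reads in 120 min mouse 3 limits low genes.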
